A study of Rattus norvegicus with 6 samples.

Results

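NADPH oxidases and the antioxidant enzymes that remove their products were followed in messenger RNA from isolated rat glomeruli, the filtering units of the kidney. Of 9 gene symbols sought, 8 were paired with 1 Ensembl gene ID each through the human symbols in the authors' tables, out of 26319 gene IDs in the count table. They were NOX4, CYBB, CYBA and NCF1 among the oxidase genes and SOD1, SOD2, CAT and GPX1 among the antioxidant genes. GPX3 was paired with no ID and is not analysed here. All 8 members passed the filter on low counts.

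The study sequenced 6 libraries, 2 for each of 3 groups, all from the Sprague Dawley strain. Wild types (WT) were labelled as receiving vehicle, and their libraries came from animals of 20.4 and 21.9 weeks. The other rats were AT1R Tg, transgenic for the type 1 receptor of angiotensin II. They received vehicle (the vehicle rats, 20.4 and 17.4 weeks) or the TRPC5 channel blocker AC1903 (the AC1903 rats, 23.0 and 20.4 weeks). The labels give no promoter for the transgene, no dose or length of treatment, and no pooling of animals. Ages are given in the order of replicates 1 and 2.

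NADPH oxidases are membrane enzymes that pass electrons from NADPH to oxygen. NOX4, abundant in kidney epithelium, is active without cytosolic activators and releases mainly hydrogen peroxide, while CYBB (also called NOX2) is the phagocyte oxidase, which makes superoxide once cytosolic subunits such as NCF1 (p47phox) dock on it. CYBA (p22phox) is the membrane partner of both. Superoxide dismutases turn superoxide into hydrogen peroxide, SOD1 in the cytosol and SOD2 in mitochondria, and catalase (CAT, in peroxisomes) and glutathione peroxidase 1 (GPX1) remove that peroxide.

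Total expected counts per library ran from 12325515 to 36026772 and were higher in both WT libraries than in the other 4. The members rested on 36 counts (NCF1) to 7290 counts (CAT) per library. Levels are CPM, counts scaled to library size with trimmed mean of M values (TMM) normalisation. Markers of podocytes, the defining cell of the glomerulus, were detected in every library (11 of 11 markers, none at 0). Their summed level was 13712 and 11600 CPM in WT, 14601 and 7757 CPM in vehicle rats and 9120.5 and 11906 CPM in AC1903 rats. The 10 glomerular endothelial markers summed to 8981 and 8872 CPM in WT and 6256 and 6630 CPM in vehicle rats. They summed to 8942 and 6940 CPM in AC1903 rats. Proximal tubule markers were also detected in every library (17 of 17, none at 0), with a summed level of 4001 and 2502 CPM in WT, 5855 and 11529 CPM in vehicle rats and 6061 and 6018 CPM in AC1903 rats. The 14 macrophage and monocyte markers, none at 0, summed to 272 and 461 CPM in WT, 258 and 330 CPM in vehicle rats and 405 and 940 CPM in AC1903 rats. In such bulk libraries a change in the number of cells of a type and a change in RNA per cell cannot be told apart.

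The upstream sequences of the 2 catalytic oxidase genes are shown because their levels parted between the groups, with those of CYBA and CAT beside them because both followed NOX4 more closely than CYBB. They come from RefSeq (build GRCr8, all 8 members matched by symbol), which is not the build of the counts, and each is printed 5′ to 3′ up to the base before the annotated gene start. The RefSeq gene record of NOX4 starts upstream of the transcript start on which its window is set, so only the first 97 bases of that window are printed, with 1 of its 2 GC boxes. Capitals mark GGGCGG (the GC box) in NOX4 and CYBA, GAGGAA (the core bound by the myeloid factor PU.1) in CYBB and CCAAT in CAT, on either strand.
NOX4, chr1:150313639-150313735, plus strand: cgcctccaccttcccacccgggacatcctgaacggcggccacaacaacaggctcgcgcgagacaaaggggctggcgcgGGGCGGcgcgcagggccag
CYBB, chrX:16065066-16065315, minus strand: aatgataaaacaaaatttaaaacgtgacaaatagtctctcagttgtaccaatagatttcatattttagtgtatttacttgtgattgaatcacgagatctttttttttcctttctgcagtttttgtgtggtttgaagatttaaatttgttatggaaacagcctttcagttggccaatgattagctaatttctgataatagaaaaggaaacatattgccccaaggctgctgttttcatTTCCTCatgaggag
CYBA, chr19:67404215-67404464, minus strand: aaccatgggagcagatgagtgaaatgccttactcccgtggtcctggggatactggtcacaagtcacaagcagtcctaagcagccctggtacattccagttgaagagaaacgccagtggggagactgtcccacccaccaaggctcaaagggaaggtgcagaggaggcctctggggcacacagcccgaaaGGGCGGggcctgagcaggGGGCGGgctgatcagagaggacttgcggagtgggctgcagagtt
CAT, chr3:110329527-110329776, minus strand: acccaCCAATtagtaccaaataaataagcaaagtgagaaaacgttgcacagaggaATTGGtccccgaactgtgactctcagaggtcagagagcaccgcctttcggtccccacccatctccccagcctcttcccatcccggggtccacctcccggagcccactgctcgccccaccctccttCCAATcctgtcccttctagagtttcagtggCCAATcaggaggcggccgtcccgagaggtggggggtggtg

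Over windows of 300 bases (250 before to 50 after the transcript start), the NOX4 promoter had a GC content of 73.0% with 31 CpG dinucleotides, and the CYBB promoter 35.7% with 3. The median of 33469 rat promoters was 51.7% and 7 CpG. Those of CYBA, SOD1, CAT and GPX1 had 61.0%, 61.3%, 59.3% and 58.7% GC, and SOD2 72.0%. The GC box stood in the windows of NOX4 (2 matches), CYBA (2), SOD2 (2), SOD1 (1), GPX1 (1) and NCF1 (1), and in 33.1% of all promoters. GAGGAA stood once each in CYBB and CAT and in 27.6% of all promoters, and CCAAT 5 times in CAT, 2 times in CYBB and 1 time in SOD1 and in 37.5% of all promoters. The antioxidant response element core, TGACNNNGC, stood once each in NCF1 and SOD2 and in 12.1% of all promoters. Both strands were searched, and a match is a string of letters, not a measured site.

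NOX4 was the member that stood furthest above WT in the vehicle-treated transgenic rats. NOX4 (ENSRNOG00000013925) measured 38.1 and 18.4 CPM in WT, 57.7 and 122 CPM in vehicle rats and 57.4 and 63.5 CPM in AC1903 rats. Both WT libraries lay below all 4 transgenic libraries, and the 17.4-week vehicle animal, replicate 2, stood alone at the top. The group means were 28.3 ± 13.9, 89.7 ± 45.3 and 60.4 ± 4.29 CPM (mean ± SD, n = 2 each).

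For NOX4 the log2 change of vehicle against WT was 1.67 with SE 0.40, a fold of 3.18, and did not pass edgeR's quasi-likelihood test (adjusted p = 0.18, unadjusted p = 0.00286, rank 208 of 13426 genes by p). DESeq2 called it (adjusted p = 0.00292), and so did the authors' deposited table (log2 fold change 1.69, adjusted p = 0.00265). Leaving out 1 library moved the change from 1.03 (without vehicle replicate 2) to 2.28 (without WT replicate 1), and without vehicle replicate 1 it was 2.11 and passed (edgeR adjusted p = 0.0263). AC1903 against vehicle gave -0.57 with SE 0.39 (edgeR adjusted p = 0.693) with overlapping groups, and 0.06 without vehicle replicate 2. AC1903 against WT gave 1.10 with SE 0.40 (edgeR adjusted p = 0.4). The order of group means was vehicle, AC1903 and WT, and the first pair did not differ beyond its spread.

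CYBB, the phagocyte oxidase, followed another order. CYBB (ENSRNOG00000003622) measured 10.5 and 14.5 CPM in WT, 11.6 and 7.49 CPM in vehicle rats and 18.0 and 45.0 CPM in AC1903 rats. Both AC1903 libraries lay above the other 4 libraries, WT and vehicle overlapped, and AC1903 replicate 2 stood far above replicate 1. The group means were 12.5 ± 2.83, 9.55 ± 2.91 and 31.5 ± 19.1 CPM.

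AC1903 against vehicle gave CYBB a log2 change of 1.72 with SE 0.43, a fold of 3.29. This missed edgeR's threshold (adjusted p = 0.538, unadjusted p = 0.00353) and passed in DESeq2 (adjusted p = 0.0321) and in the authors' deposited table (log2 fold change 1.72, adjusted p = 0.0165). The change was 0.88 without AC1903 replicate 2. Against WT the AC1903 change of CYBB was 1.33 with SE 0.41 (edgeR adjusted p = 0.36), and 0.52 without AC1903 replicate 2. Vehicle against WT gave -0.38 with SE 0.42 (edgeR adjusted p = 0.784).

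CYBA, the shared membrane subunit, stood highest in the vehicle rats. CYBA (ENSRNOG00000013014) measured 78.7 and 77.5 CPM in WT, 110 and 119 CPM in vehicle rats and 98.7 and 88.6 CPM in AC1903 rats. The 3 groups did not overlap, with vehicle highest and WT lowest. Vehicle against WT gave a log2 change of 0.56 with SE 0.15 (edgeR adjusted p = 0.192, DESeq2 adjusted p = 0.0239). AC1903 against vehicle gave -0.29 with SE 0.15 (edgeR adjusted p = 0.641), in the direction of NOX4 and opposite to CYBB.

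NCF1, the cytosolic organiser of the phagocyte oxidase, was the least abundant member in counts. NCF1 (ENSRNOG00000001480) measured 2.62 and 5.80 CPM in WT, 3.11 and 2.93 CPM in vehicle rats and 3.08 and 9.11 CPM in AC1903 rats. Only AC1903 replicate 2 and WT replicate 2 stood above 4 CPM, and all 3 groups overlapped. Its log2 change with AC1903 against vehicle was 1.01 with SE 0.60 (edgeR adjusted p = 0.664), and -0.01 without AC1903 replicate 2.

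**Figure D1:**
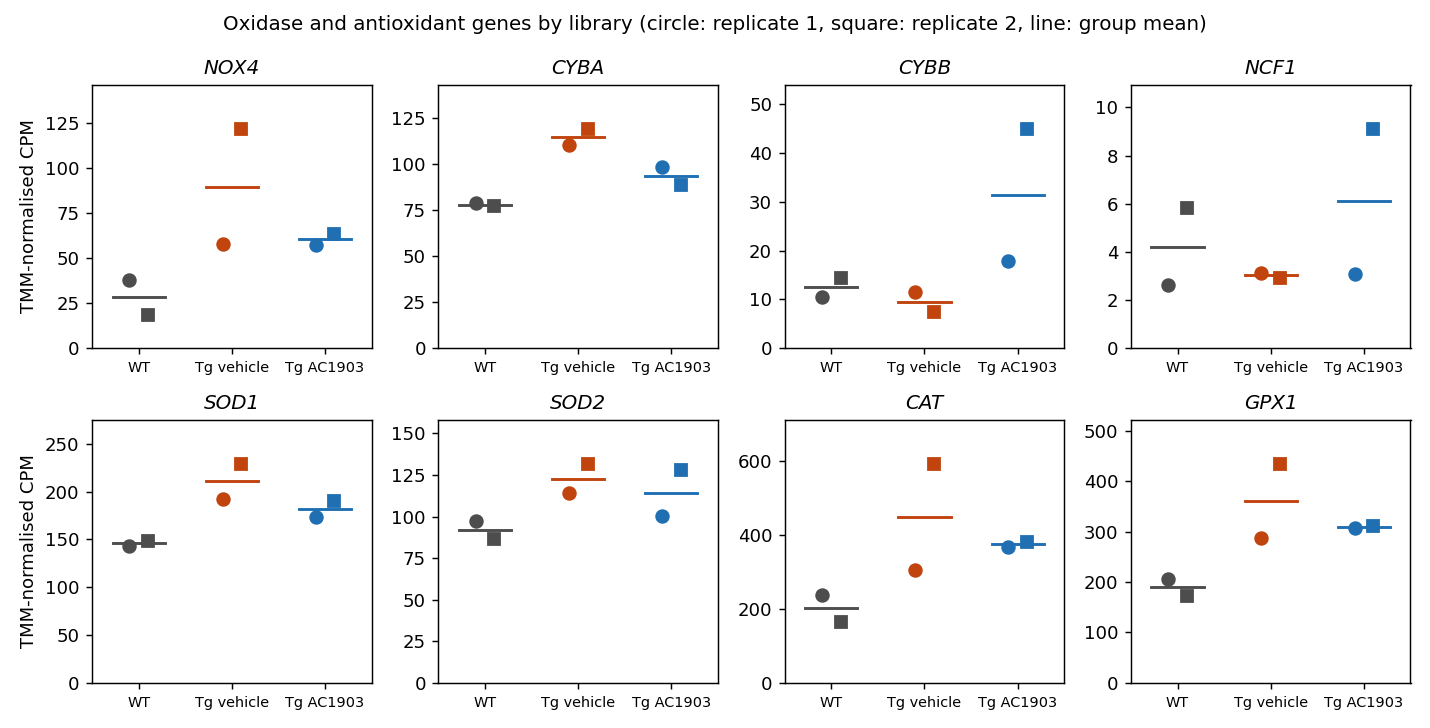
TMM-normalised CPM (y axes, from 0) of the 8 genes in each library of the 3 groups (x axes), with replicate 1 as circles, replicate 2 as squares and the mean of the 2 as a line. NOX4, CAT and GPX1 were highest in vehicle replicate 2, and CYBB and NCF1 in AC1903 replicate 2.

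The antioxidant enzymes all stood higher in both vehicle libraries than in both WT libraries. Catalase, CAT (ENSRNOG00000008364), measured 238 and 166 CPM in WT, 305 and 593 CPM in vehicle rats and 367 and 382 CPM in AC1903 rats. The 4 transgenic libraries lay above WT, and vehicle replicate 2 was again the highest. The log2 change of vehicle against WT was 1.15 with SE 0.31 (edgeR adjusted p = 0.193, DESeq2 adjusted p = 0.0105). It was 0.59 without vehicle replicate 2, and 1.55 without vehicle replicate 1, where it passed (edgeR adjusted p = 0.0256). AC1903 against WT gave CAT a change of 0.89 with SE 0.31 (edgeR adjusted p = 0.393).

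GPX1 (ENSRNOG00000048812), which reduces hydrogen peroxide with glutathione, measured 207 and 172 CPM in WT, 287 and 435 CPM in vehicle rats and 306 and 311 CPM in AC1903 rats. Every transgenic library exceeded every WT library, and the AC1903 pair lay inside the vehicle range. The log2 change of vehicle against WT was 0.93 with SE 0.22 (edgeR adjusted p = 0.18, DESeq2 adjusted p = 0.00524). It was 0.60 without vehicle replicate 2, and 1.20 without vehicle replicate 1, where it passed (edgeR adjusted p = 0.0256). AC1903 against WT gave 0.70 with SE 0.22 (edgeR adjusted p = 0.371).

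The dismutases differed less. SOD1 (ENSRNOG00000002115) measured 143 and 149 CPM in WT, 192 and 229 CPM in vehicle rats and 173 and 190 CPM in AC1903 rats. Its groups did not overlap in any comparison, and the change of vehicle against WT was 0.53 with SE 0.16 (edgeR adjusted p = 0.221, DESeq2 adjusted p = 0.0439). SOD2 (ENSRNOG00000019048) measured 97.3 and 86.5 CPM in WT, 114 and 132 CPM in vehicle rats and 101 and 128 CPM in AC1903 rats. Both transgenic groups lay above WT and overlapped each other. The SOD2 change of vehicle against WT was 0.42 with SE 0.18 (edgeR adjusted p = 0.4, DESeq2 adjusted p = 0.317).

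Read over the members, vehicle against WT put 6 of 8 higher without overlap of the groups and 0 lower, where 20.6% of all genes tested were higher without overlap and 23.4% lower. Their median log2 change was 0.54, against -0.03 over all genes tested. The members were chosen with earlier results of these data known, and several moved together over the libraries, so these counts are descriptions. None of the 8 passed edgeR's adjusted threshold, which 0.0745% of all genes did, 6 had an unadjusted p under 0.05 and were higher (8.57% of all genes), and limma-voom called 0 (0.0521% of all genes). DESeq2 called NOX4, CYBA, SOD1, CAT and GPX1 higher, 5 of 8 where it called 3.85% of all genes higher. The authors' deposited table called the same 5, against 4.01% of its genes.

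With AC1903 against vehicle the members split. CYBB was higher without overlap (19.9% of all genes were), CYBA and SOD1 were lower without overlap (18.4%), and the other 5 overlapped. Neither edgeR nor limma-voom called any member or any of the 13426 genes (0% each), CYBB was the only member with an unadjusted p under 0.05 (8.12% of all genes), and DESeq2 called CYBB alone (higher, 0.439% of all genes). The authors' deposited table also called CYBB alone, with 0.369% of its genes called higher. The log2 changes of SOD1, SOD2, CAT and GPX1 were -0.21, -0.10, -0.26 and -0.23, with SEs of 0.16, 0.18, 0.31 and 0.22. With AC1903 against WT all 8 log2 changes were positive (50.2% of all genes) and 7 of 8 were higher without overlap (24.2% of all genes). None passed in edgeR (0.0372%), DESeq2 (1.35%) or limma-voom (0.0521%), and 4 had an unadjusted p under 0.05 and were higher (6.92%). These comparisons share libraries pairwise, so they are not independent of each other.

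**Figure D2:**
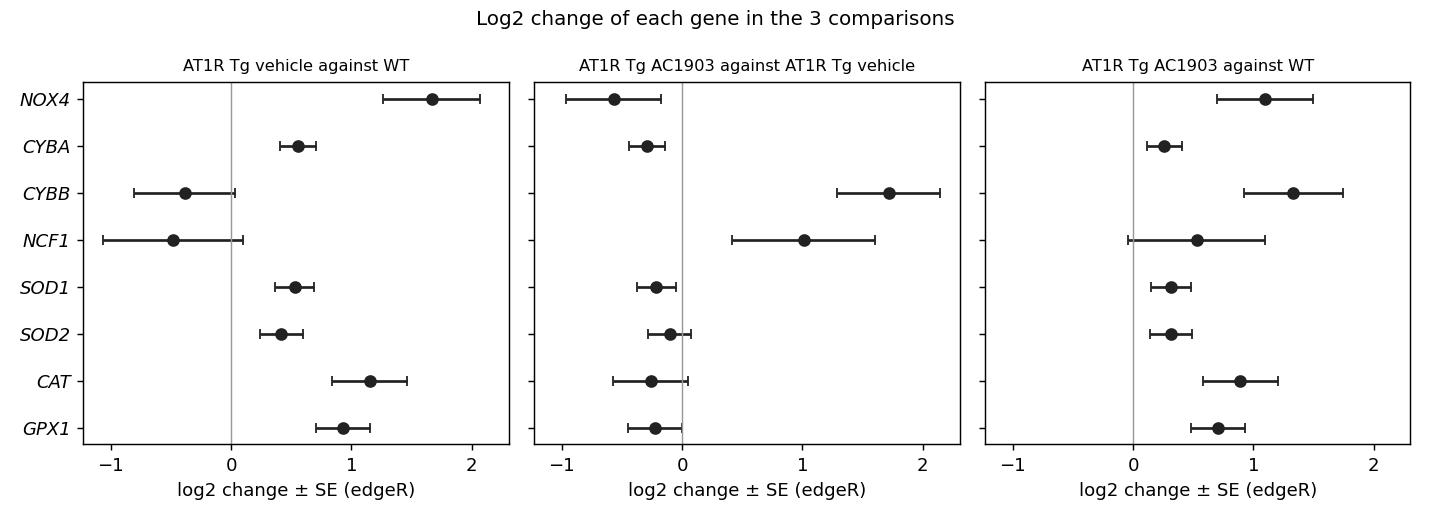
Log2 change (x axes) with its SE from edgeR for each gene (y axis) in the 3 comparisons. NOX4 lies furthest right for vehicle against WT (1.67) and CYBB furthest right for AC1903 against vehicle (1.72), while the antioxidant genes lie on one side of 0 in each panel.

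The balance of the oxidases was read as a ratio within each library, in which library scaling cancels. Gene lengths were not used here, so ratios are compared between groups and not read as relative amounts. Relative to the WT mean, the log2 ratio of NOX4 to CYBB was 0.76 and -0.76 in WT, 1.21 and 2.91 in vehicle rats and 0.57 and -0.61 in AC1903 rats. Both vehicle libraries lay above the other 4 libraries, and the AC1903 pair lay inside the WT range. The mean difference was 2.06 for vehicle against WT, -2.08 for AC1903 against vehicle and -0.02 for AC1903 against WT. The exact two-sided permutation p was 0.3333, 0.3333 and 1, and 0.3333 is the smallest that 2 against 2 allows. The difference of vehicle against WT was 1.21 without vehicle replicate 2 and 1.31 without WT replicate 2, and that of AC1903 against vehicle was -1.23 without vehicle replicate 2. The sign of AC1903 against WT changed with the library left out (-0.77 to 0.74).

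Against the mean log2 level of SOD1, SOD2, CAT and GPX1, NOX4 stood at 0.41 and -0.41 in WT, 0.64 and 1.21 in vehicle rats and 0.62 and 0.63 in AC1903 rats, relative to the WT mean. So NOX4 was further above WT than the enzymes were, with differences of 0.92 for vehicle and 0.63 for AC1903, and its groups did not overlap (exact permutation p = 0.3333 each). CYBB on the same scale stood at -0.35 and 0.35 in WT, -0.57 and -1.70 in vehicle rats and 0.05 and 1.24 in AC1903 rats. The vehicle pair lay below the others, by -1.14 against WT, and AC1903 exceeded vehicle by 1.78 (exact permutation p = 0.3333 each). Leaving out 1 library moved the NOX4 difference over 0.51 (without WT replicate 2) to 1.34 for vehicle against WT and over 0.22 (without WT replicate 2) to 1.04 (without WT replicate 1) for AC1903 against WT. NOX4 in AC1903 against vehicle was -0.30, and -0.014 without vehicle replicate 2. For CYBB the difference of vehicle against WT ran from -1.70 (without vehicle replicate 1) to -0.57 (without vehicle replicate 2), and that of AC1903 against vehicle from 1.19 (without AC1903 replicate 2) to 2.37. Adjusted over the 9 differences of ratios, the smallest value was 0.4285.

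**Figure D3:**
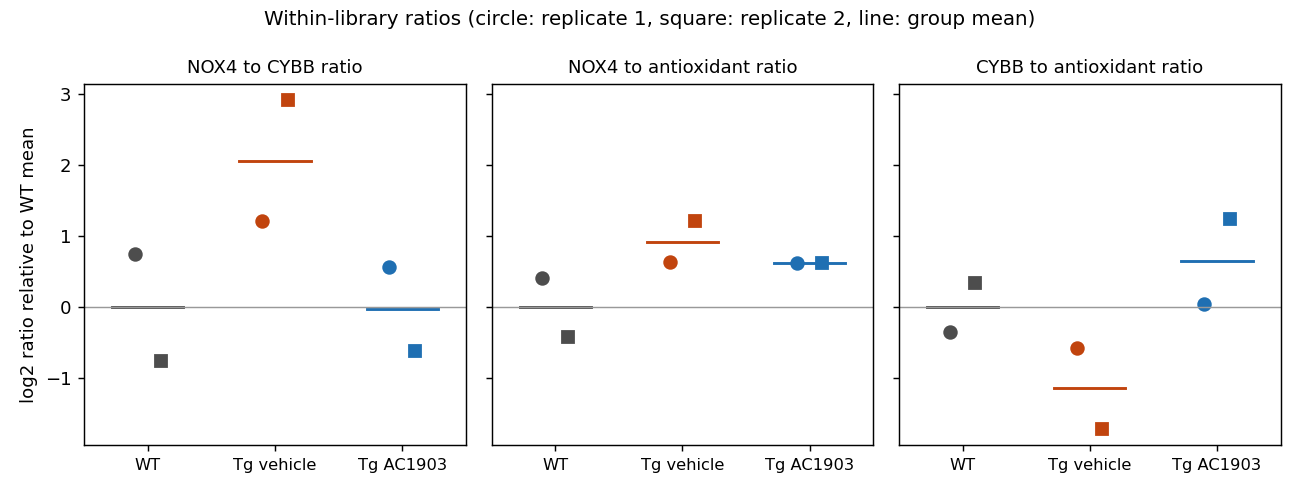
Log2 ratios within a library relative to the WT mean (y axis) for the 3 groups (x axes), with replicate 1 as circles, replicate 2 as squares and the mean as a line. The NOX4 to CYBB ratio was highest in the vehicle pair (1.21 and 2.91) and alike in range in WT and AC1903.

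Proximal tubule and macrophage markers also differed between the groups. Other marker sets differed too. With AC1903 against vehicle, 7 of 8 loop, distal tubule and collecting duct markers had a positive change (median 0.59). So did all 10 glomerular endothelial markers (median 0.25), where the median over all genes tested was -0.02. Proximal tubule markers stood, as a mean log2 level relative to WT, at 0.35 and -0.35 in WT, 0.88 and 1.74 in vehicle rats and 0.95 and 0.93 in AC1903 rats. NOX4 on the same scale stood at 0.52 and -0.52, 1.12 and 2.20, and 1.11 and 1.26, with WT replicate 2 lowest and vehicle replicate 2 highest on both. Less the marker level, NOX4 lay at 0.17 and -0.17 in WT, 0.24 and 0.45 in vehicle and 0.16 and 0.33 in AC1903. CAT less the marker level lay at -0.09 and 0.09 in WT, -0.26 and -0.16 in vehicle and -0.07 and 0.01 in AC1903. CYBA less the marker level lay at -0.34 and 0.34 in WT, -0.38 and -1.13 in vehicle and -0.61 and -0.75 in AC1903, so it varied less than the markers did.

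When edgeR also fitted the proximal tubule marker level, the vehicle-against-WT change was -0.09 with SE 0.295 for NOX4, -0.16 with SE 0.33 for CAT and 0.16 with SE 0.32 for GPX1. It was 0.43 with SE 0.291 for CYBA and 0.34 with SE 0.32 for SOD1. In that fit the adjusted p was 0.999 for all 8 members, and since the marker level itself differed between the groups, its part and that of the genotype cannot be told apart. All 17 proximal tubule markers were themselves higher in vehicle than in WT without overlap, with a median log2 change of 1.37.

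Macrophage and monocyte markers stood at -0.36 and 0.36 in WT, -0.42 and -0.14 in vehicle rats and 0.38 and 0.77 in AC1903 rats, and all 14 had a positive log2 change with AC1903 against vehicle (median 0.85, 9 of 14 without overlap). CYBB less that level lay at 0.13 and -0.13 in WT, 0.34 and -0.57 in vehicle and 0.16 and 1.09 in AC1903, so AC1903 replicate 2 remained the highest library. With the macrophage level as a covariate the change of CYBB with AC1903 against vehicle was 0.83 with SE 0.75 (edgeR adjusted p = 1), and that of NCF1 was -0.76 with SE 0.86. For CSF1R, the macrophage growth factor receptor, the WT libraries gave 22.2 and 30.2 CPM and the vehicle libraries 17.3 and 25.8 CPM. The AC1903 libraries gave 33.4 and 73.5 CPM. Not every macrophage marker did so against WT: with AC1903 against WT 11 of the 14 had a positive change and 3 a negative one (median 0.69). Of the 14, 4 were higher without overlap (24.2% of all genes). Summed over the 3 neutrophil markers, the vehicle libraries held 1.70 and 1.71 CPM. The WT libraries held 4.70 and 6.61 CPM and the AC1903 libraries 5.74 and 10.1 CPM. The vehicle pair thus lay below both other groups, while WT and AC1903 overlapped. The vehicle sums rested on few counts, 5 and 1 for S100A8, 7 and 6 for S100A9 and 12 and 14 for CSF3R. None of the 3 neutrophil markers passed in edgeR for vehicle against WT (smallest adjusted p = 0.26). The part of these cells in the CYBB difference was not tested beyond these fits.

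Age also differed within groups and between them, and the youngest animal (17.4 weeks) was vehicle replicate 2. The parts of age, of group and of that library cannot be fully told apart. With age in weeks as a covariate in edgeR, the vehicle-against-WT change of NOX4 was 0.98 with SE 0.34, and its AC1903-against-vehicle change turned to 0.36 with SE 0.40. CAT turned to 0.42, SOD2 to 0.17 and GPX1 to 0.16 in the latter comparison, while CYBB was 1.83 with SE 0.54.

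**Figure D4:**
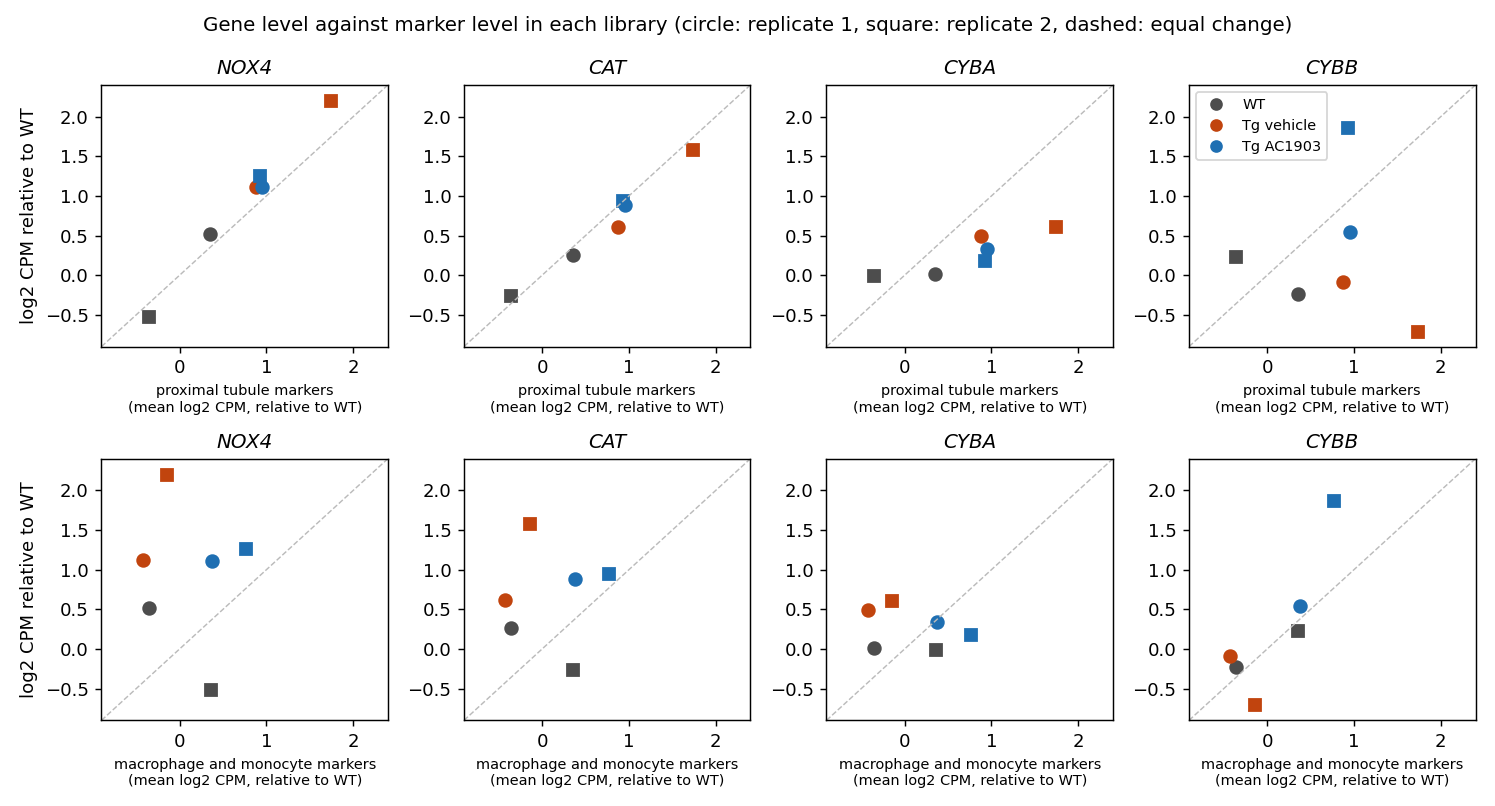
Log2 CPM relative to the WT mean (y axes) of 4 genes against the mean log2 level of proximal tubule markers (top row) or macrophage and monocyte markers (bottom row) in the same library (x axes), with colours for groups, circles for replicate 1, squares for replicate 2 and a dashed line for equal change. NOX4 and CAT lie along the dashed line in the top row, with NOX4 in vehicle replicate 2 at 2.20 for a marker level of 1.74, and CYBB lies furthest above the dashed line in AC1903 replicate 2.

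Among the genes whose levels followed NOX4 most closely over the 6 libraries, by Pearson correlation of log2 CPM with 11974 other genes, were MGAT3 (0.9989), ALDH8A1 (0.9987), KIAA1919 (0.9982) and SLC3A1 (0.9981). SLC3A1 is the heavy chain of a cystine and basic amino acid transporter. Those most like CAT were CCR10 (0.9976), HPD (0.9975), SLC5A2 (0.9974), AP2A2 (0.9973) and PC (0.997), of which SLC5A2, the sodium-glucose cotransporter of the proximal tubule, is also one of the markers. Those most like CYBB were LAMTOR3 (0.996), IKBKG (0.9923), LCP2 (0.9846), MAP2K3 (0.9839) and IL1RN (0.9836). LCP2, a signalling adaptor of blood cells, measured 4.23 and 5.20 CPM in WT, 3.75 and 2.69 CPM under vehicle and 5.24 and 12.1 CPM in AC1903. Between members the same measure was 0.9833 for NOX4 with CAT, 0.9777 for NOX4 with GPX1, 0.8449 for NOX4 with CYBA, 0.8341 for CYBB with NCF1 and -0.1194 for NOX4 with CYBB. These are descriptions over 6 libraries that share groups, depth and cell makeup.

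The other genes of the pathway were 49 IDs that could be tested. For vehicle against WT none passed in edgeR, 12 had an unadjusted p under 0.05 and were higher with 0 lower (8.57% of all genes were higher at that p), and DESeq2 called 5 higher and 0 lower (3.85% of all genes higher). Their median log2 change was 0.14. The 4 other oxidase partners tested, NCF4, RAC1, RAC2 and C17orf62, all had negative changes, with NCF4, another cytosolic subunit of the phagocyte oxidase, at -0.93 with SE 0.81 (edgeR adjusted p = 0.72). DUOX1, the only other catalytic subunit tested, stood near 1 CPM (0.86 in WT and 1.57 in vehicle) with a change of 0.86 with SE 0.68.

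The list of other oxidant sources holds oxidases that release hydrogen peroxide and nitric oxide synthases. None of the 10 tested passed in edgeR, 5 had an unadjusted p under 0.05 and were higher (8.57% of all genes), and DESeq2 called 4 higher (3.85% of all genes). For vehicle against WT 8 of 10 changes were positive, with a median of 1.00, and NOS3, the endothelial nitric oxide synthase, was lower without overlap (-0.31 with SE 0.19). MAOB, monoamine oxidase B, measured 7.89 and 4.31 CPM in WT and 16.3 and 29.1 CPM in vehicle (log2 change 1.90 with SE 0.38, edgeR adjusted p = 0.164, DESeq2 adjusted p = 0.000724). HAO2, a peroxisomal hydroxyacid oxidase, measured 704 and 392 CPM in WT and 1019 and 2183 CPM in vehicle, a log2 change of 1.55 with SE 0.39. DDO, D-aspartate oxidase, had a change of 1.43 with SE 0.37. HAO2 and MAOB were highest in vehicle replicate 2, as was the summed level of the proximal tubule markers. DDO measured 7.08 CPM in vehicle replicate 1 and 5.86 CPM in replicate 2, and the tubule marker SLC22A12 29.6 and 24.2 CPM. The part of tubule cells was not tested for these genes.

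Among the other antioxidant genes, SOD3, the extracellular dismutase, measured 91.8 and 70.3 CPM in WT and 101 and 137 CPM in vehicle, a change of 0.56 with SE 0.21 (edgeR adjusted p = 0.331). The 10 other glutathione genes had a median of 0.14 with 6 positive, and glutathione reductase, GSR, averaged 44.2 ± 4.72 CPM for WT and 72.4 ± 26.3 CPM for vehicle (SD, n = 2 each). The 13 thioredoxin and peroxiredoxin genes had a median of 0.14 with 9 positive, and MSRA, a methionine sulfoxide reductase, was the one DESeq2 called (log2 change 1.35 with SE 0.33, DESeq2 adjusted p = 0.0127, edgeR adjusted p = 0.18). GCLM in the glutathione list (0.52 with SE 0.21) and TXNRD1 in the thioredoxin list (0.48 with SE 0.18) were higher in vehicle without overlap. In these lists 4 and 7 genes were higher without overlap, and 1 and 2 lower (20.6% and 23.4% of all genes). The 8 genes listed under the NRF2 pathway, the transcriptional response to oxidants, had a median of 0.04 with 4 positive and 4 negative. They include the regulators NFE2L2, KEAP1, BACH1 and MAFG, so this median is not a measure of the response. By smallest p, HMOX2, haem oxygenase 2, led this list for vehicle against WT, at 37.2 and 38.4 CPM in WT against 44.9 and 56.1 CPM under vehicle (log2 change 0.42 with SE 0.18, edgeR adjusted p = 0.414). BACH1, a repressor of NRF2 targets, led it for AC1903 against WT, at 17.7 and 12.7 CPM in WT against 20.0 and 26.5 CPM under AC1903 (log2 change 0.62 with SE 0.24, edgeR adjusted p = 0.412). Both were higher without overlap. The NRF2 target NQO1, next in both comparisons, measured 10.2 and 13.1 CPM in WT, 7.01 and 8.79 CPM under vehicle and 7.82 and 6.95 CPM in AC1903, lower in both transgenic groups without overlap (log2 change -0.56 with SE 0.27 and -0.66 with SE 0.27, edgeR adjusted p = 0.479 and 0.439).

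With AC1903 against vehicle the 49 genes had a median log2 change of -0.13, 14 positive and 35 negative, and none passed in edgeR or DESeq2, with 2 higher and 3 lower at an unadjusted p under 0.05, where 5.35% of all genes were higher and 2.77% lower. The 2 higher were RAC2 and NCF4. RAC2, the small GTPase of the phagocyte complex, measured 5.31 and 9.85 CPM in vehicle and 11.3 and 23.1 CPM in AC1903, a change of 1.19 with SE 0.46 (edgeR adjusted p = 0.602). NCF4 measured 0.71 and 1.87 CPM in vehicle and 1.50 and 8.15 CPM in AC1903, a change of 1.91 with SE 0.83 (edgeR adjusted p = 0.612). Its counts were low, 10 and 23 in vehicle and 18 and 102 in AC1903. RAC1, the broadly expressed relative of RAC2, measured 90.4 and 87.3 CPM in vehicle and 102 and 92.8 CPM in AC1903, a change of 0.14 with SE 0.15. Glutathione synthetase, GSS, was among the 3 lower, at 83.0 ± 7.59 CPM in vehicle and 56.6 ± 9.70 CPM in AC1903 (SD, n = 2 each) (edgeR adjusted p = 0.556). HMOX1, haem oxygenase 1, measured 2.76 and 1.79 CPM in vehicle and 3.24 and 7.59 CPM in AC1903, with AC1903 replicate 2 highest as for CYBB and NCF1 (log2 change 1.25 with SE 0.56, edgeR adjusted p = 0.612).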

How the data were processed

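Messenger RNA libraries of 6 glomerular samples were grouped by their titles. The authors deposited expected counts per Ensembl gene, made with STAR 2.5.2b and RSEM 1.3.0 on Rnor_5.0, per the submitters' processing notes. The log2 fold changes and adjusted p-values quoted from the authors' deposited tables are theirs, per the file headers, and no source used here names the tool behind them. The kit was stranded, per the labels' protocols. Samples of the same group differed in age, and beyond this the labels do not say that samples came from separate animals. The p-values measure the spread between these samples, part of which may be technical.

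Expected counts were rounded, filtered with filterByExpr by group (13426 of 26319 genes left) and scaled by TMM. All 6 libraries entered 1 two-sided quasi-likelihood fit in edgeR 4.0.16 (R 4.3.3), leaving 3 residual degrees of freedom. P-values were adjusted by Benjamini-Hochberg across the whole tested table, and 0.05 was the threshold. The fit was tested on simulated data with a single spread for all genes and planted changes larger than any member showed. That test therefore does not cover changes of the members' size. An SE is the log2 change over the square root of the F statistic. DESeq2 1.42.0 and limma-voom (limma 3.58.1), size factors, no filter, the 2 groups alone, a replicate block, age, proximal tubule or macrophage level as a covariate, and leaving out each library were the alternatives. Marker levels are means of log2 CPM with a prior count of 2, and ratios used a prior count of 0.5. Pathway genes were named by being past the threshold, or by the smallest p, up to 3 per list. The 2 libraries of a group differed by more than sampling noise (chi-square per degree of freedom 17.1 to 81.9). The members and lists were chosen with earlier results of these data known. All motifs but the antioxidant response element core were added after the promoters were seen. One gene that the rule for likeness names is not reported here.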

Additional observations from a re-analysis of the deposited data

How the results depend on the processing

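Counts of called members depended on the tool and the filter. For vehicle against WT, 0 of 8 passed in edgeR, 5 in DESeq2, 5 in the authors' deposited table (a comparison added after seeing the data), 3 with no filter on low counts and 0 to 3 when 1 library was left out, the 3 without vehicle replicate 1. For AC1903 against vehicle the count was 0 in edgeR and 1 in DESeq2, in the authors' deposited table and with no filter. For AC1903 against WT it was 0, and 3 with no filter. Over all genes, vehicle against WT gave 10 calls, 560 in DESeq2, 774 with no filter, 4 from the 2 groups alone, 4 with the replicate block, 4 with age, 1 with the macrophage level and 1 to 530 leaving out a library. AC1903 against vehicle gave 0 calls, 67 in DESeq2, 114 with no filter, 2 with the replicate block, 1 with age, 1 with the macrophage level and 0 to 4 leaving out a library. AC1903 against WT gave 5 calls, 181 in DESeq2, 464 with no filter, 21 from the 2 groups alone and 1 to 25 leaving out a library.

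Of 360 refits of a member's change, 322 kept direction and side of the threshold, 16 newly passed it and 22 turned direction. None of those 22 had passed before, since no member passed in edgeR's main fit of any comparison. The 322 were therefore all refits that stayed uncalled. When the proximal tubule level was fitted too, vehicle against WT turned for NOX4 (-0.090), CYBB (0.54), NCF1 (0.63) and CAT (-0.16), AC1903 against vehicle for NOX4 (0.021), CAT (0.17) and GPX1 (0.013), and AC1903 against WT for NOX4 (-0.068). With the macrophage level, NCF1 turned in all 3 comparisons (0.19, -0.76 and -0.56 in the order above). With age, AC1903 against vehicle turned for NOX4 (0.36), SOD2 (0.17), CAT (0.42) and GPX1 (0.16). Leaving out a library moved AC1903 against vehicle over -1.01 to 0.059 for NOX4, -0.67 to 0.29 for CAT, -0.50 to 0.10 for GPX1, -0.33 to 0.020 for SOD2 and -0.0079 to 1.55 for NCF1. For NCF1 the range was -0.94 to 0.20 in vehicle against WT and -0.46 to 1.21 in AC1903 against WT. The NOX4 to CYBB ratio of AC1903 against WT ran from -0.77 to 0.74, and the other ratio differences kept their sign while their sizes moved, that of CYBB to the antioxidant mean in AC1903 against WT over 0.053 to 1.24. The cause of these shifts was not tested. The replicate block changed no member's call, and same-numbered samples did not deviate together (correlation -0.0203, -0.0409 and 0.00458 over genes). Leaving GPX3 out of the antioxidant mean was not run, since no ID was paired with it. Where a group keeps 1 library, it is taken to vary like the others. Among the members, depth limits NCF1 most, at 36 to 214 counts. Some other pathway genes rested on fewer, such as NCF4 (10 to 104 counts) and DUOX1 (9 to 33 counts).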
